A study of Mus musculus with 23 samples.

Results

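The 3 Runx transcription factors, their shared DNA-binding partner Cbfb and 6 corepressor genes were followed through differentiation of the mouse muscle precursor line C2C12. These myoblasts divide while serum is plentiful, and low serum makes them leave the cell cycle and fuse into myotubes. The set comprises Runx1, Runx2, Runx3, Cbfb, the Groucho family genes Tle1, Tle3 and Tle4, and the ETO family genes Runx1t1, Cbfa2t2 and Cbfa2t3, taken by symbol from the deposited tables. These are 10 of 32793 genes, and 9 of them were among the 14187 genes abundant enough to be tested; Runx1t1 was not. RNA sequencing of poly(A) transcripts covered 23 libraries in 8 groups. Control cells (here WT) and cells labelled Runx1KO (here labelled KO) were harvested on day 0, in growth medium with 20% FBS, or after 1, 3 or 6 days in differentiation medium with 2% horse serum. The series text gives the last time as 5 days, and the sample titles were followed. Each group had 3 libraries except WT day 0, for which 2 were analysed here. All groups are C2C12, and the labels name no other allele or agent. The labels do not say how or where Runx1 was edited or whether the edited cells are 1 clone. They also do not say that libraries of a group came from separate cultures, so the p-values below measure only the spread between these libraries, which may be technical.

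Runx proteins bind DNA through the conserved Runt domain, and Cbfb, which does not itself contact DNA, strengthens that binding. The carboxy-terminal VWRPY motif of Runx factors recruits Groucho/TLE corepressors, and ETO family proteins recruit NCoR, Sin3 and histone deacetylase complexes. Runx1 is best known from blood formation, Runx2 from bone and Runx3 from T cells and sensory neurons. In skeletal muscle, Runx1 is known to be induced by denervation and injury, and the study asks what Runx1 does in myoblast differentiation.

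All 3 Runx genes carry a tandem copy of the Runx recognition sequence near an annotated start, and these sites are shown because they are the sequence feature that the 3 factors share and that the other members with a window lack there. RefSeq promoter windows (assembly GRCm38.p6, the assembly behind the mm10 build that the submitters' processing notes name) run from 250 bases before to 50 bases after a gene's start. They were searched on both strands for TGTGGT, whose reverse complement is ACCACA, and for the tandem ACCACANNACCACA, each copy of which is also counted as the single motif. In the 30-base stretches below, read 5′ to 3′ on the gene's own strand, capitals mark ACCACA.
Runx1 tandem: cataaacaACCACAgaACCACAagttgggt
Runx2 tandem: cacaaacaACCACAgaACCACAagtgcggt
Runx3 tandem: gtccctcaACCACAgaACCACAaggccagg
Runx2 single: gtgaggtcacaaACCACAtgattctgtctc
The Runx1 stretch lies at chr16:92826025-92826054 on the minus strand, with the motif's first base at position 29 after the start. In Runx2 it lies at chr17:44814583-44814612 on the minus strand, at position 24 after the start, and the additional single copy lies at chr17:44814690-44814719, with its first base at position -80 from the start. For Runx3 it lies at chr4:135120503-135120532 on the plus strand, at position -134. The central letters of the tandem, including the 2 bases between the copies, are identical in all 3 genes. Among 32851 windows of the same length, 16.8% held TGTGGT on either strand, and 7 windows, of 7 genes, held the tandem (0.0213%). Apart from the 3 Runx genes these were Gm12236, Gm15462, Gm16225 and Olfr24. A second annotated start of Runx1 and of Runx3 had 0 matches in its window, as did every window found for Cbfb, Cbfa2t2, Cbfa2t3, Tle1, Tle3 and Tle4. The counts are summed over a gene and do not separate transcripts from its different starts, so the data do not say which start was used.

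Levels between genes are given as TPM (transcript abundance normalised for transcript length and for depth) from the authors' table. Differences between groups are log2 fold changes (log2FC) from the authors' estimated counts, scaled by edgeR's TMM factors, and CPM are the same counts relative to the scaled library total. Total counts per library ran from 22197606 to 23684077. Replicate 2 of the day 1 group labelled KO stood apart from the other libraries of its group. The chi-square per degree of freedom between their counts was 61.3 and 61.1, against at most 27.4 for any other pair of replicates. Day 1 results that gained or lost a call without that library, or whose called value moved by over 1.5 times, are given with and without it. The fit shares each gene's spread over all groups, so that library also enters the SE and p-values of other days. For those days, the only fits read without it were those of only the groups compared. All 9 myoblast and myotube markers were detected, except Ckm in labelled KO on day 0, and their summed level ran from 1426 to 1484 CPM in WT and from 2070 to 2166 CPM in labelled KO on day 0. On day 6 it ran from 3297 to 3501 CPM in WT and from 11040 to 13480 CPM in labelled KO, where myogenin (Myog) averaged 909 CPM against 149 CPM in WT. Endothelial, adipocyte and osteoblast markers summed to at most 1.25, 0.528 and 2.87 CPM in any library. Haematopoietic markers summed to at most 4.81 CPM outside the day 6 group labelled KO and to between 9.44 and 11.6 CPM there, nearly all of it Cd68, while Adgre1 was at 0 in every library and Ptprc in every group but WT day 6, where 1 count was found. Neuronal markers summed to at most 52.1 CPM, nearly all of it Syn1, with Snap25 at 0 throughout. Fibroblast markers summed to at most 27.3 CPM, mostly Pdgfra, with Thy1 at 0 throughout. In bulk RNA, fewer cells of a type and less RNA per cell cannot be told apart.

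Of the 9 tested members, 2 differed between WT and the libraries labelled KO on day 0, 6 on day 1, 4 on day 3 and 4 on day 6 (edgeR quasi-likelihood test, adjusted p under 0.05). The shares of all tested genes that differed were 17.5%, 42.2%, 43.2% and 42.9%, so with 9 members the counts lay near the background on days 0, 3 and 6. The day 1 count was 4 without replicate 2 of the group labelled KO, and the day 0 count was 1 without WT day 0 replicate 2. Most differences were upward. In labelled KO, 2, 4, 4 and 4 members were higher (background 7.36%, 22.9%, 24.0% and 22.0%) and 0, 2, 0 and 0 were lower (background 10.1%, 19.2%, 19.2% and 20.8%). At an unadjusted p under 0.05, edgeR's test had 0, 2, 2 and 0 members lower on days 0, 1, 3 and 6, and DESeq2 with adjusted p called 0, 2, 2 and 0. Runx1 and Tle4 were higher on all 4 days, a pattern met by 3.31% of all tested genes. The median log2FC of the 9 members was 0.11, 0.03, 0.19 and 0.15 on days 0, 1, 3 and 6, while the median over all tested genes was within 0.04 of 0 on each day.

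**Figure D1:**
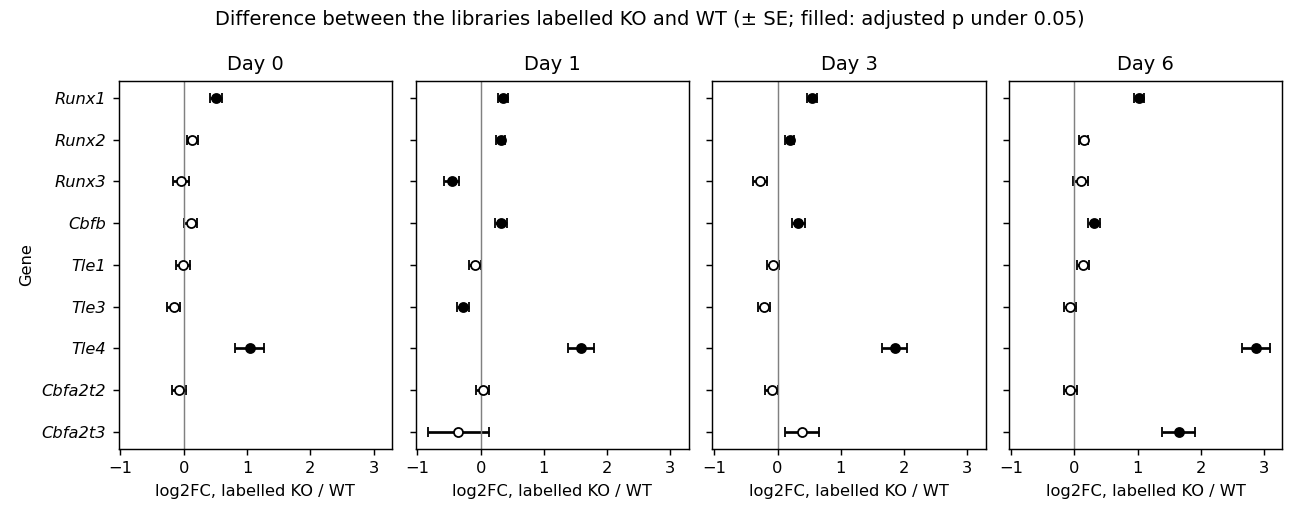
Log2FC of the 9 tested members between the libraries labelled KO and WT on days 0, 1, 3 and 6 (points, with SE as bars; filled points passed an adjusted p of 0.05). Runx1 and Tle4 lie to the right of 0 on every day, Cbfa2t3 only on day 6 by the test, and Tle1 and Cbfa2t2 stay within 0.15 of 0. Cbfa2t3 has no point on day 0 because both groups were at or under the floor.

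Runx1 (chr16:92601466-92826074), the targeted gene, was not lower in any group labelled KO. In WT it measured 21.2 and 20.1 TPM on day 0, 28.8, 29.4 and 25.9 TPM on day 1, 42.6, 41.9 and 40.2 TPM on day 3, and 39.8, 38.1 and 49.8 TPM on day 6. Libraries labelled KO held 28.9, 28.5 and 29.6 TPM on day 0, 35.3, 33.2 and 37.0 TPM on day 1, 66.4, 52.6 and 52.1 TPM on day 3, and 84.3, 85.3 and 82.1 TPM on day 6. On every day the lowest library labelled KO lay above the highest WT library, and the widest gap was on day 6. The fitted difference was 1.43-fold on day 0 and 2.03-fold on day 6 (log2FC 1.02, SE 0.083, edgeR adjusted p = 6.11e-10). The mRNA level alone cannot check the label, and directions below are those of the libraries as labelled. A count over the whole gene sums all its exons and cannot show a small deletion or a frameshift. The count obtained per TPM unit, which moves with the transcript length the authors' software assumed, was lower in labelled KO by 0.04, 0.02, 0.06 and 0.09 on the log2 scale on days 0, 1, 3 and 6.

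In both genotypes Runx1 rose during differentiation, but it kept rising after day 3 only in the libraries labelled KO. In WT the change from day 0 was 0.28 on day 1 (SE 0.094, edgeR adjusted p = 0.0133), 0.83 on day 3 and 0.86 on day 6. The day 1 change did not pass when WT day 0 replicate 2 was left out (edgeR adjusted p = 0.0745). In labelled KO it was 0.12 on day 1 (edgeR adjusted p = 0.22; without replicate 2, 0.20 and 0.0376), 0.86 on day 3 and 1.37 on day 6 (SE 0.084, edgeR adjusted p = 8.61e-13). The change to day 6 was larger in labelled KO by 0.51 (interaction, SE 0.124, edgeR adjusted p = 0.00658), and without WT day 0 replicate 1 this interaction did not pass (edgeR adjusted p = 0.0509). In a comparison added after the values had been seen, the step from day 3 to day 6 was 0.04 in WT (edgeR adjusted p = 0.849) and 0.52 in labelled KO (SE 0.082, edgeR adjusted p = 2.11e-05), and the steps differed by 0.48 (SE 0.116, edgeR adjusted p = 0.00826). The summed muscle markers, given above for day 6, ran from 5524 to 8348 CPM on day 3 in labelled KO and from 3600 to 3761 CPM in WT. On day 6 their sum was thus higher than on day 3 in labelled KO and lower in WT. Not every marker followed the sum. By group mean, Myod1, Myf5 and Myh3 were lower on day 6 than on day 3 in labelled KO, and Des and Mymk were higher in WT. The part of the muscle markers in the Runx1 result was not tested.

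**Figure D2:**
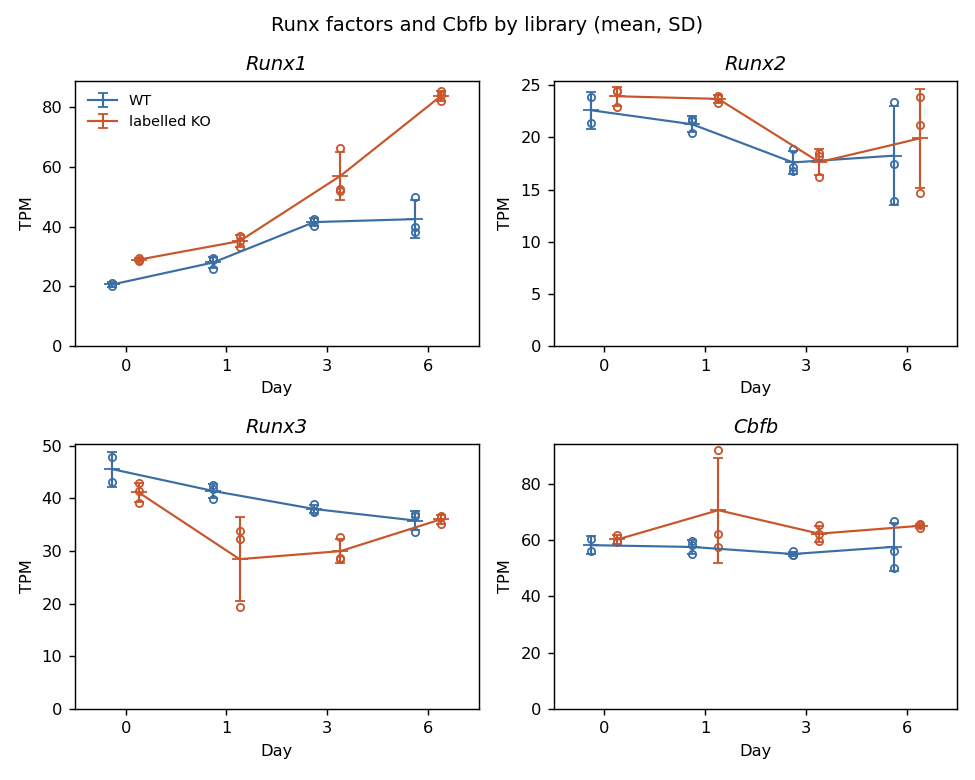
TPM (vertical axes, from 0) of Runx1, Runx2, Runx3 and Cbfb on days 0, 1, 3 and 6 in WT and labelled KO libraries (circles, 1 per library), with the mean joined by lines and SD as bars. Runx1 climbs from 29.0 to 83.9 TPM in labelled KO and levels off at 42.6 TPM in WT, Runx2 and Runx3 decline in WT, and Cbfb stays between 49.9 and 66.8 TPM apart from 92.0 TPM in labelled KO day 1 replicate 2.

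Runx2 (chr17:44495987-44814797), the master regulator of osteoblasts, declined during differentiation in both genotypes. WT libraries measured 23.9 and 21.4 TPM on day 0, 20.4, 21.8 and 21.6 TPM on day 1, 17.2, 18.9 and 16.8 TPM on day 3, and 17.4, 14.0 and 23.4 TPM on day 6. Libraries labelled KO measured 22.9, 24.5 and 24.4 TPM on day 0, 24.0, 23.8 and 23.3 TPM on day 1, 18.2, 18.5 and 16.2 TPM on day 3, and 23.9, 21.2 and 14.7 TPM on day 6. The day 6 groups were wide and overlapped, and only on day 1 did the genotypes separate in TPM. Relative to day 0, Runx2 fell by 0.28, 0.50 and 0.56 on the log2 scale on days 1, 3 and 6 in WT (edgeR adjusted p = 0.00513, 1.43e-05 and 2.67e-06). In labelled KO it fell by 0.45 on day 3 and by 0.55 on day 6 (edgeR adjusted p = 1.46e-05 and 5.3e-07), and the day 1 value of -0.11 did not pass. No interaction with genotype passed for Runx2.

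The genotypes differed in Runx2 by 0.32 on day 1 (SE 0.073, edgeR adjusted p = 0.00129) and by 0.19 on day 3 (SE 0.074, edgeR adjusted p = 0.0418), higher in labelled KO. On day 0 the difference was 0.14 and on day 6 it was 0.15, and neither passed. On the log2(TPM + 1) scale the day 1 and day 3 differences were 0.15 and 0.0021 and lost their calls, as did each decline above except that of day 3 in labelled KO. The day 1 decline in WT was also lost without WT day 0 replicate 1. The count per TPM unit of Runx2 varied among libraries more than that of 97.3% of 9435 genes with at least 100 counts, and it differed between the genotypes by 0.12 on day 1 and by -0.11 on day 6 (labelled KO against WT, log2). Only 5 of 17 alternatives kept the day 3 call.

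Runx3 (chr4:135120645-135177990) was the most abundant Runx mRNA in growing myoblasts and fell during differentiation. In WT it measured 47.9 and 43.2 TPM on day 0, 42.5, 41.8 and 40.0 TPM on day 1, 38.9, 37.7 and 37.4 TPM on day 3, and 37.0, 33.7 and 36.8 TPM on day 6. Libraries labelled KO held 42.8, 39.2 and 41.4 TPM on day 0, 33.8, 19.3 and 32.3 TPM on day 1, 32.7, 28.5 and 28.8 TPM on day 3, and 36.6, 35.1 and 36.5 TPM on day 6. The genotypes were apart on days 0, 1 and 3 in TPM and overlapped on day 6, and the lowest value of all, 19.3 TPM, was in the library that stands apart. The difference on day 1 was -0.46 (SE 0.117, edgeR adjusted p = 0.00313), without that library it was -0.28 (edgeR adjusted p = 0.00228), and with an offset for the GC content of each gene (GC offset) it was -0.25 (edgeR adjusted p = 0.00214). The day 1 call was lost when only the day 1 groups were fitted. On day 3 the difference of -0.28 missed the threshold (edgeR adjusted p = 0.0589), which it passed in 12 of 17 alternatives, and the values for days 0 and 6 were -0.04 and 0.10.

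Relative to day 0, Runx3 fell in WT by 0.36 on day 3 (edgeR adjusted p = 0.0208) and by 0.51 on day 6 (edgeR adjusted p = 0.00152), and the day 1 value of -0.29 did not pass (edgeR adjusted p = 0.0639). The day 1 value passed in 4 of 16 alternatives, and with the GC offset it was -0.50 (edgeR adjusted p = 8.72e-07) and the day 3 value -0.54. The WT day 3 call was lost in 5 of 16 alternatives, which were both TPM fits and the fits without WT day 0 replicate 1, WT day 0 replicate 2 or WT day 3 replicate 2. In labelled KO it fell by 0.70, 0.59 and 0.36 on days 1, 3 and 6 (edgeR adjusted p = 2.55e-05, 0.000142 and 0.00799). Without replicate 2 the day 1 value was -0.49, and on the log2(TPM + 1) scale the day 6 value was -0.18 and did not pass, while with the GC offset it was -0.55. The lowest group mean in TPM was on day 6 in WT. In labelled KO it was on day 1, but without replicate 2 of that day it was on day 3. The interactions of Runx3 with genotype were -0.41, -0.24 and 0.14 on days 1, 3 and 6 and did not pass, apart from day 3 when only the groups compared were fitted (-0.28, edgeR adjusted p = 0.0322). In the comparison added later, the steps from day 3 to day 6 differed by 0.38 and did not pass (edgeR adjusted p = 0.143), but they passed in 3 of 23 alternatives, which were the fit of only the groups compared (0.38, edgeR adjusted p = 0.0118) and both fits with a GC offset (0.31 each).

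Cbfb (chr8:105170674-105217989), the partner that all 3 Runx proteins share, held a nearly even level in most libraries. WT libraries ranged from 49.9 to 66.8 TPM over all days, and libraries labelled KO from 57.6 to 65.6 TPM, apart from 92.0 TPM in replicate 2 of day 1. Day 6 WT alone spanned 49.9, 55.9 and 66.8 TPM and overlapped labelled KO at 64.1, 65.3 and 65.6 TPM. On the count scale Cbfb was higher in labelled KO by 0.32 on day 1, 0.33 on day 3 and 0.31 on day 6 (SE 0.097 each, edgeR adjusted p = 0.00931, 0.00833 and 0.0116), and by 0.11 on day 0, which did not pass. Without replicate 2 the day 1 value was 0.11 and did not pass (edgeR adjusted p = 0.18), and with the GC offset it was 0.07 (edgeR adjusted p = 0.292). The differences lost their calls in 7, 3 and 5 of 17 alternatives on days 1, 3 and 6, both TPM fits among them on each day (0.26, 0.17 and 0.18 on log2(TPM + 1)). Within labelled KO no change from day 0 passed, but with the GC offset the day 6 value was 0.28 (edgeR adjusted p = 3.8e-05) and the day 6 interaction from 0.20 to 0.24 (edgeR adjusted p = 0.0345), and both passed. In WT the day 3 value of -0.25 was at the threshold (edgeR adjusted p = 0.0499) and was lost in 13 of 16 alternatives.

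The summed TPM of the 3 Runx genes was close to level in WT and highest on day 6 in labelled KO, and the share of Runx1 was larger on later days in both. In WT the sum was 88.8 ± 5.87 TPM on day 0 (SD, n = 2), 90.7 ± 2.93 on day 1, 97.2 ± 2.39 on day 3 and 96.6 ± 12.3 on day 6 (SD, n = 3). The sum in labelled KO was 94.0 ± 1.66, 87.3 ± 9.53, 104.7 ± 11.0 and 139.9 ± 5.91 TPM on the same days (SD, n = 3). The lowest labelled KO library of day 6, at 133 TPM, lay above the highest WT library, at 110.0 TPM, and on the other days the groups overlapped. These sums and the shares below are descriptions, with no test.

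Runx1 made up 23.3% of the sum in WT on day 0, 30.9% on day 1, 42.8% on day 3 and 44.0% on day 6. In labelled KO its share was 30.8%, 40.5%, 54.4% and 60.0%. Runx3 went the other way, from 51.3% to 37.3% in WT and from 43.7% to 25.8% in labelled KO between days 0 and 6. The leading Runx mRNA was thus Runx3 on days 0 and 1 in WT and on day 0 in labelled KO, and Runx1 afterwards, by group mean. Cbfb amounted to 0.655 of the Runx sum in WT on day 0 and 0.595 on day 6, and to 0.640 and 0.465 in labelled KO, the lowest ratio of the 8 groups. On day 1 in labelled KO the ratio averaged 0.832 with an SD of 0.325, and it was 1.21 in replicate 2.

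**Figure D3:**
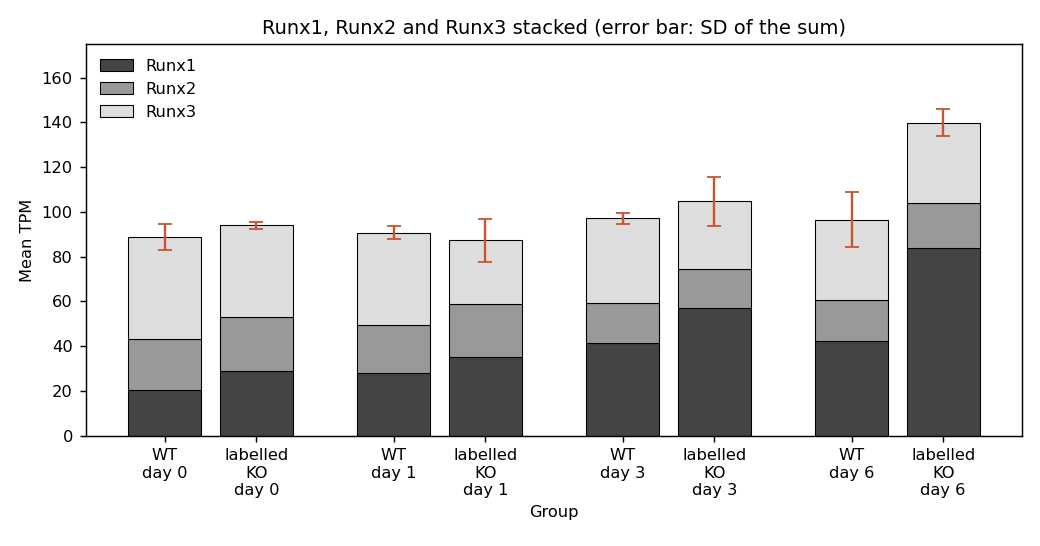
Mean TPM of Runx1, Runx2 and Runx3 stacked for each of the 8 groups (vertical axis from 0, bars are group means, error bars are the SD of the sum). The stack stays between 87.3 and 104.7 TPM except in labelled KO day 6, where it reaches 139.9 TPM through the Runx1 segment.

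Tle4 (chr19:14448072-14598183), a Groucho corepressor, was scarce but gave the largest called difference of the set on each day. In WT it measured 0.81 and 0.69 TPM on day 0, 0.91, 0.61 and 0.63 TPM on day 1, 0.74, 0.74 and 0.80 TPM on day 3, and 0.51, 0.24 and 0.45 TPM on day 6. Libraries labelled KO held 1.65, 1.57 and 1.27 TPM on day 0, 1.82, 1.95 and 2.36 TPM on day 1, 2.75, 2.11 and 2.35 TPM on day 3, and 2.66, 3.36 and 2.14 TPM on day 6. No library labelled KO fell as low as any WT library, on any day. The counts behind these values ran from 15 to 213 per library, so they carry more counting error than those of the abundant members. Tle4 was 2.06-fold higher in labelled KO on day 0 (log2FC 1.04, SE 0.233, edgeR adjusted p = 0.00253) and 3.01-fold on day 1 (1.59, SE 0.204, edgeR adjusted p = 1.62e-06). It was 3.61-fold higher on day 3 (1.85, SE 0.202, edgeR adjusted p = 1.06e-07) and 7.32-fold on day 6 (2.87, SE 0.219, edgeR adjusted p = 2.27e-10). Leaving out WT day 0 replicate 2 ended the day 0 call (edgeR adjusted p = 0.0537), and the calls of the later days passed in all alternatives. Their size depends on the scale: on log2(TPM + 1), where the added 1 compresses values this low, the differences were 0.51, 0.83, 0.95 and 1.40 on days 0, 1, 3 and 6.

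Over the whole course Tle4 moved in opposite directions in the genotypes. From day 0 to day 6 Tle4 fell by 1.12 in WT (edgeR adjusted p = 0.000842) and rose by 0.71 in labelled KO (edgeR adjusted p = 0.00153), and the interaction was 1.83 (SE 0.324, edgeR adjusted p = 0.00033). On log2(TPM + 1) the WT fall was -0.33 and the interaction 0.89, and both passed. In the comparison added later, the step from day 3 to day 6 was -0.90 in WT (edgeR adjusted p = 0.0195) and 0.12 in labelled KO (edgeR adjusted p = 0.638). The WT step lost its call in 6 of 17 alternatives, which were log2(TPM + 1), only the groups compared, and the fits without WT day 3 replicate 1 or 2 or WT day 6 replicate 2 or 3. Those steps differed by 1.02 (edgeR adjusted p = 0.0295), a call lost in 8 of 23 alternatives. Of the summed TPM of Tle1, Tle3 and Tle4, Tle4 was 1.43% in WT on day 0 and 0.647% on day 6, against 3.15% and 4.60% in labelled KO.

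Tle3 (chr9:61372326-61418497) was by far the most abundant of the 3 Groucho genes, and was lower in labelled KO by the test on day 1 alone. WT libraries measured 41.5 and 39.1 TPM on day 0, 55.0, 53.5 and 48.9 TPM on day 1, 52.1, 51.0 and 51.0 TPM on day 3, and 46.7, 49.1 and 55.0 TPM on day 6. Libraries labelled KO measured 36.2, 32.2 and 35.3 TPM on day 0, 43.1, 35.5 and 48.3 TPM on day 1, 42.5, 40.2 and 37.3 TPM on day 3, and 46.2, 42.6 and 42.1 TPM on day 6. In TPM the labelled KO values lay below all WT values on each day, narrowly on days 1 and 6. On the count scale the differences were -0.16, -0.27, -0.22 and -0.07 on days 0, 1, 3 and 6, with edgeR adjusted p = 0.347, 0.0196, 0.0596 and 0.56. Without replicate 2 of the day 1 group labelled KO, the day 1 value was -0.15 and did not pass (edgeR adjusted p = 0.0634). That call was also lost with the GC offset (-0.14, edgeR adjusted p = 0.0525), with the GC offset and replicate block, and when only the day 1 groups were fitted (edgeR adjusted p = 0.124). The day 3 difference passed in 11 of 17 alternatives.

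From growth medium, Tle3 rose by 0.26 on day 1 in WT (edgeR adjusted p = 0.0373). In labelled KO its day 1 value was 0.14 and did not pass (edgeR adjusted p = 0.201), but without replicate 2 it was 0.30 and passed (edgeR adjusted p = 0.00032). It rose by 0.23 on day 6 in labelled KO (edgeR adjusted p = 0.0308). The day 1 call in WT was lost in 4 of 16 alternatives and the day 6 call in labelled KO in 7 of 17, and with the GC offset these values were 0.13 and 0.04. No interaction of Tle3 with genotype passed.

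Tle1 (chr4:72109945-72200989) lay between 9.21 and 14.1 TPM in all 23 libraries, and the genotypes overlapped on every day. Its differences between labelled KO and WT of -0.01, -0.09, -0.08 and 0.14 on days 0, 1, 3 and 6 did not pass. Relative to day 0 it fell in WT by 0.26 on day 3 and by 0.37 on day 6 (edgeR adjusted p = 0.0363 and 0.00377). The WT day 3 call was lost in 10 of 16 alternatives, among them the fits without any 1 of the 5 libraries compared, and the WT day 6 call was lost without WT day 0 replicate 1. In labelled KO it fell by 0.33 on day 3 (edgeR adjusted p = 0.00483) and by 0.22 on day 6 (edgeR adjusted p = 0.0413), and only 8 of 17 alternatives kept the day 6 call; with the GC offset the value was -0.36. None of these declines passed on the log2(TPM + 1) scale, where the values were -0.06 and -0.02 in WT on days 3 and 6, and -0.18 and 0.11 in labelled KO. The count per TPM unit of Tle1 varied more among libraries than that of 95.7% of genes and was lower in labelled KO by 0.18 on day 6, and the part of that shift in the result was not tested.

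Cbfa2t3 (chr8:122625136-122699332), an ETO family corepressor best known from blood progenitors, was at or near 0 in growing cells and rose in both genotypes. Both WT libraries had 0 counts on day 0, and WT counts were then 20, 10 and 15 on day 1, 104, 100 and 110 on day 3, and 109, 106 and 117 on day 6. Libraries labelled KO had 0, 1 and 0 counts on day 0, 10, 6 and 18 on day 1, 210, 101 and 85 on day 3, and 269, 377 and 384 on day 6. In TPM, day 6 stood at 1.06, 1.02 and 1.26 in WT and at 2.67, 3.39 and 3.45 in labelled KO. The genotypes overlapped until day 3 and were wholly apart on day 6.

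Against a floor of 3 counts in a single library (0.139 CPM in the shallower WT day 0 library), Cbfa2t3 was at least 4.59-fold higher in WT on day 1, at least 32.7-fold on day 3 and at least 34.3-fold on day 6. In labelled KO, where 1 count was found on day 0, the ratio of summed counts per depth is given. It was 32.3 on day 1 (95% exact interval 5.42 to 1310) and 973 on day 6 (174 to 38500), with intervals that cover counting error only. A bound from a floor and a ratio to 1 count are unlike measures, so these values do not compare the genotypes. The day 6 interaction was -0.28 and did not pass (edgeR adjusted p = 0.842), but on both TPM scales it was positive and passed. The change from day 0 passed in both genotypes on all 3 later days, although on the log2(TPM + 1) scale the day 1 changes of 0.20 in WT and 0.14 in labelled KO did not. Between the genotypes the day 6 difference was 3.13-fold (log2FC 1.65, SE 0.258, edgeR adjusted p = 1.83e-05; 0.98 on log2(TPM + 1), which also passed), and the values of -0.35 on day 1 and 0.39 on day 3 did not pass. In the comparison added later, the step from day 3 to day 6 was 0.07 in WT (edgeR adjusted p = 0.923) and 1.33 in labelled KO (SE 0.254, edgeR adjusted p = 0.000206). The steps differed by 1.26 (SE 0.37, edgeR adjusted p = 0.0278), which was lost in 8 of 23 alternatives. As for Runx1, the summed muscle markers were higher on day 6 than on day 3 in labelled KO, and Cd68 was higher in the same day 6 group, and their part in this result was not tested.

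Neither of the other ETO genes gave a call. Cbfa2t2 (chr2:154436098-154539356) lay between 9.06 and 15.1 TPM in all libraries, with the highest value in WT day 6 replicate 3, and the genotypes overlapped on every day but day 3. Its differences between labelled KO and WT were -0.07, 0.03, -0.09 and -0.07, and no change over time passed either. Runx1t1 (chr4:13742628-13895056), the ETO gene itself, had 0 to 8 counts per library, at most 0.09 TPM, which is too few for a test. Cbfa2t3 made up 0% of the summed ETO family TPM in WT on day 0, 7.60% on day 3 and 8.91% on day 6, and 24.2% in labelled KO on day 6.

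**Figure D4:**
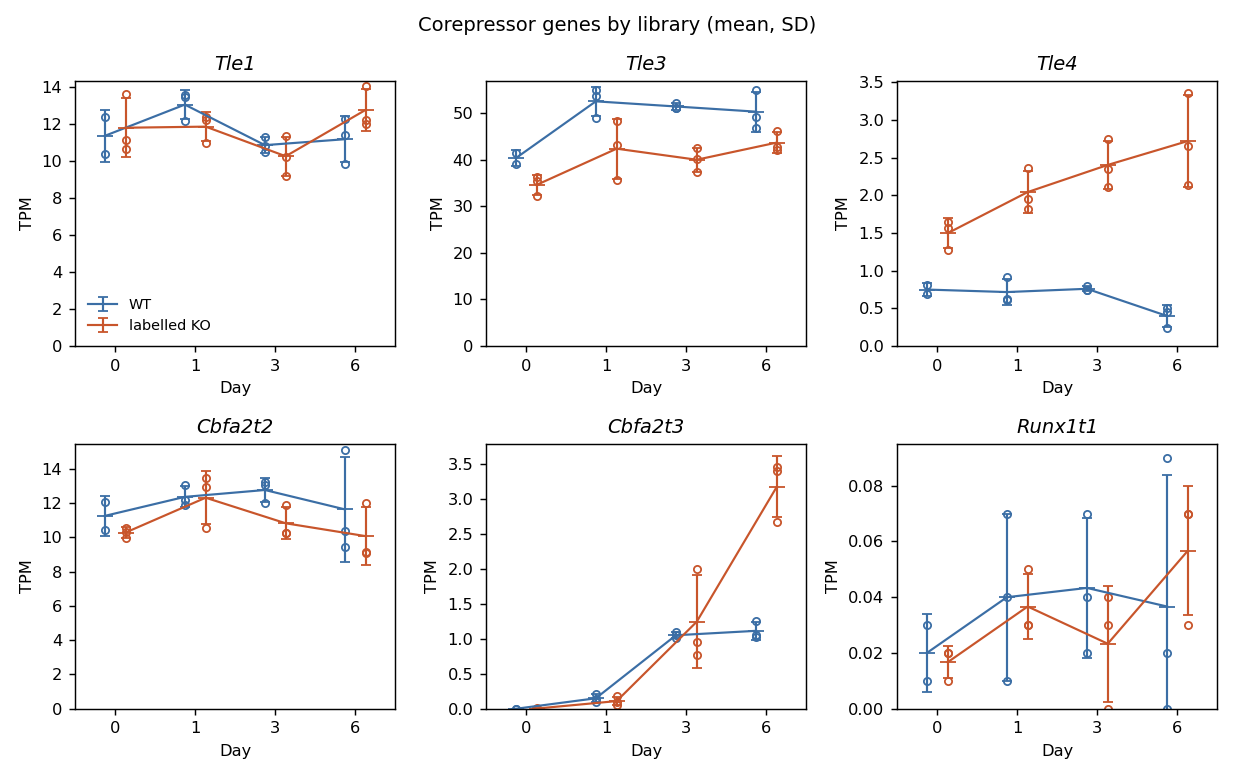
TPM (vertical axes from 0, with a different scale in each panel) of Tle1, Tle3, Tle4, Cbfa2t2, Cbfa2t3 and Runx1t1 on days 0, 1, 3 and 6 in WT and labelled KO libraries (circles, 1 per library), with the mean joined by lines and SD as bars. Tle4 is higher in every labelled KO library than in any WT library. Cbfa2t3 rises from at or near 0 in both genotypes, and to 3.17 TPM in labelled KO on day 6. Runx1t1 stays at or under 0.09 TPM.

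Set out by mean TPM, the order of the members differed between groups mainly in the places of Runx1, Cbfa2t3, Runx3 and Tle3. In WT on day 0 it was Cbfb (58.2 ± 3.08 TPM), Runx3 (45.6 ± 3.36), Tle3 (40.3 ± 1.73), Runx2 (22.6 ± 1.77), Runx1 (20.7 ± 0.743), Tle1 (11.4 ± 1.41), Cbfa2t2 (11.2 ± 1.15), Tle4 (0.75 ± 0.085), Runx1t1 (0.02 ± 0.014) and, at 0, Cbfa2t3 (SD, n = 2). Runx2 and Runx1, and Tle1 and Cbfa2t2, did not differ beyond their spread there. In WT on day 6 the first 4 were Cbfb (57.6 ± 8.57), Tle3 (50.3 ± 4.28), Runx1 (42.6 ± 6.37) and Runx3 (35.8 ± 1.83), each overlapping the next within 1 SD (SD, n = 3). In labelled KO on day 6 Runx1 was first at 83.9 ± 1.63 TPM and Cbfb second at 65.0 ± 0.792 TPM, and these were apart (SD, n = 3). Cbfb headed the other 7 groups, although its spread also overlapped that of Tle3 in WT on day 1 and that of Runx1 in labelled KO on day 3. Below them, Cbfa2t3 and Tle4 overlapped in labelled KO on day 6, at 3.17 ± 0.434 and 2.72 ± 0.612 TPM.

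Changes over differentiation were common among all genes as well as among the members. In WT the number of members that differed from day 0 was 4 on day 1, 6 on day 3 and 6 on day 6, against 54.7%, 58.2% and 63.6% of all tested genes. The day 1 count was 2 without either WT day 0 library, and the day 3 count was 3 without either of them or without WT day 3 replicate 2. In labelled KO it was 2, 6 and 7, against 52.3%, 57.6% and 70.0%, and the day 1 count was 4 without replicate 2 of day 1. Runx1, Runx2, Runx3, Tle1 and Cbfa2t3 were called on day 6 in both genotypes, Runx1 and Cbfa2t3 higher and the others lower than on day 0, although on the TPM scale the calls of Runx2 and Tle1 in both genotypes and of Runx3 in labelled KO were lost. Tle4 was called in both with opposite signs. The change from day 0 differed between the genotypes for 0, 0 and 2 of the 9 members on days 1, 3 and 6, with 3.95%, 10.7% and 13.0% of all genes called, and the day 6 count was 1 without WT day 0 replicate 1. At an unadjusted p under 0.05, edgeR's test gave 1, 1 and 2 members, and DESeq2 with adjusted p gave 0, 0 and 2. In the steps from day 3 to day 6, WT had 1 member called (background 9.79%), labelled KO had 2 (41.3%) and their difference had 3 (12.4%). The WT count was 0 when WT day 3 replicate 1 or 2 or WT day 6 replicate 2 or 3 was left out, and the count of the difference was 1 without replicate 2 or 3 of labelled KO day 3, replicate 1 or 3 of WT day 3, or replicate 2 of either day 6 group. These comparisons share groups, so their counts are not independent.

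Other genes of the Runx pathway were read from lists chosen with earlier results of these data known. Their counts are to be read against the shares of all tested genes that were higher or lower on each day, given above. Among the genes named below, calls lost when some 1 library was left out were those of Tle2 (days 0 and 3), Tle6 (day 3), Aes (day 6), Tbl1xr1 (days 0 and 1), Hdac1 (days 1 and 3), Hdac2 (day 6), Kat6b (day 3), Etv4 (day 3), Gabpa (day 3), Hipk2 (days 0, 1 and 3), Smurf2 (day 0) and Wwp1 (days 3 and 6). Of 3 other tested Groucho genes, 1 was lower in labelled KO on days 0 and 1, and on days 3 and 6 all 3 differed, 1 higher and 2 lower. Tle2 was lower on all 4 days (-0.70, -0.94, -0.38 and -0.52, edgeR adjusted p = 0.00827, 1.35e-05, 0.0325 and 0.00449). Aes, a short Groucho protein that lacks the WD-repeat domain of the others, was higher by 0.58 on day 3 and 0.51 on day 6. On day 1 it stood at 0.16 and was not called, but without replicate 2 of the day 1 group labelled KO it was 0.38 and passed (edgeR adjusted p = 0.00865), so that 1 gene of the list was then higher on day 1. Tle6 was lower on days 3 and 6 (-0.54 and -0.78). In labelled KO on days 3 and 6, Tle4 and Aes were thus higher and Tle2 and Tle6 lower. The list's median log2FC on day 6 was -0.52.

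The 10 genes of the NCoR, Sin3 and histone deacetylase complexes, which ETO and Runx proteins recruit, showed 1 lower on day 0, 2 higher and 1 lower on days 1 and 3, and 4 lower on day 6, with the rest not called. Over all tested genes 17.5%, 42.2%, 43.2% and 42.9% were called in either direction on those days, and 20.8% were lower on day 6. Without replicate 2 of the day 1 group labelled KO, 1 was higher on day 1. Tbl1xr1, a subunit of the NCoR complex, was lower on all 4 days (-0.28, -0.21, -0.33 and -0.49, edgeR adjusted p = 0.029, 0.0409, 0.00162 and 2.76e-05), and its day 1 value was -0.33 without replicate 2 of labelled KO day 1. Hdac1 was 0.17 and 0.22 higher on days 1 and 3 and lower on day 6 (-0.32, edgeR adjusted p = 0.000274), and its day 1 difference was 0.14 without replicate 2 of that day (edgeR adjusted p = 0.0714, not called). Hdac2 was higher on day 1 (0.48, and 0.27 without replicate 2 of labelled KO day 1) and lower on day 6 (-0.26). Among 6 coactivators, 1, 2, 1 and 2 were higher on the 4 days and 1, Kat6b, was lower on day 3. Prmt1, an arginine methyltransferase that methylates Runx1, was higher on all of them (0.38, 0.48, 0.64 and 0.38, edgeR adjusted p = 0.00277, 2.79e-05, 3.74e-07 and 0.000334).

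ETS factors bind DNA beside Runx proteins at many composite sites, and the study's title names an ETS interaction domain of Runx1. Of 16 listed ETS genes 13 were tested, and 2, 5, 4 and 3 were higher and 1, 3, 3 and 4 lower in labelled KO on days 0, 1, 3 and 6. The shares of all tested genes on these days were 7.36%, 22.9%, 24.0% and 22.0% higher, and 10.1%, 19.2%, 19.2% and 20.8% lower, and with 13 genes nothing is read from the difference. Etv4 was lower on days 1, 3 and 6 (-0.61, -0.38 and -1.03, edgeR adjusted p = 0.00116, 0.0348 and 4.7e-06), and its day 1 value was -0.40 without replicate 2 of labelled KO day 1. Its relative Etv5 was lower on day 1 (-0.61) but higher on day 6 (0.78, edgeR adjusted p = 8.31e-07). Gabpa was higher on day 1 (0.55, and 0.33 without that library) and day 3 (0.32), and Elf4 was lower on day 3 (-0.39) and day 6 (-0.41). The blood ETS genes Erg, Fli1 and Spi1 had at most 6 counts in any library and were not tested.

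Of 7 tested enzymes that modify or degrade Runx proteins, 2, 3 and 3 were higher in labelled KO on days 0, 1 and 3, where 7.36%, 22.9% and 24.0% of all tested genes were, and 1 was lower on days 3 and 6; the other 6 did not pass the test on day 6. Hipk2, a kinase that phosphorylates Runx1, was higher by 0.70, 0.54 and 0.49 on the log2 scale on days 0, 1 and 3 (edgeR adjusted p = 0.00965, 0.0103 and 0.0226). Smurf2, a ubiquitin ligase for Runx proteins, was higher by 0.28 on day 0 and 0.32 on day 1 (edgeR adjusted p = 0.0106 and 0.000486). Suv39h1, a histone methyltransferase, was higher by 0.58 on day 1 and 0.53 on day 3 (edgeR adjusted p = 2.77e-05 and 5.60e-05). The lower one was Wwp1, a ubiquitin ligase, with a log2 fold change of -0.38 on day 3 and -0.39 on day 6 (edgeR adjusted p = 0.0168 and 0.0149).

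Known target genes of Runx2 in bone and of Runx1 in blood were mostly too low to test in these cells. Of 8 bone targets 3 were tested, with 2, 2, 1 and 2 lower on days 0, 1, 3 and 6 and 1 higher on days 3 and 6. Col1a1, the main collagen of bone and connective tissue, averaged 403 CPM in WT and 18.0 CPM in labelled KO on day 0, and 6409 and 920 CPM on day 6 (log2FC -4.48 and -2.80, edgeR adjusted p = 3.16e-13 and 2.29e-11). The fibroblast marker Pdgfra was also lower in labelled KO on day 0, at 8.10 against 15.5 CPM, but not on day 6, at 20.4 against 21.0 CPM, and its part in the Col1a1 difference was not tested. Spp1, osteopontin, was lower on days 0, 1 and 6 (-0.91, -0.79 and -0.63). The gene counted as higher, Col10a1, had at most 13 counts on days 3 and 6. Of 8 blood targets 3 were tested, with none called on day 0 and 3, 2 and 2 lower on days 1, 3 and 6. Csf1r, Itga2b and Gfi1 had at most 186 counts in any library.

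The genes whose level followed each Runx gene most closely over the 23 libraries were found by Pearson's r of log2 CPM among 10046 genes with a mean of at least 5 CPM, as a description. For Runx1 they were Cobl (r = 0.98), Ankrd10, Dysf, Tmem38b and Tor1aip2 (r = 0.96 each). For Runx2 they were Arhgap35 (0.96), Cdk6, Prrg4 and Setd7 (0.95 each) and Zbtb2 (0.94). For Runx3 they were Tjap1 (0.93), Ipo4 (0.92), Dpagt1, Slc25a22 (0.91 each) and Gga3 (0.90). The points share day and genotype, and how much of each r comes from differences between groups was not measured for these genes. Among the members, Runx1 and Cbfa2t3 had r = 0.83, and 0.64 after each group's mean was removed. Without replicate 2 of the day 1 group labelled KO, that value within groups was 0.52. Runx2 and Cbfa2t3 had r = -0.82, but 0.22 within groups, and 0.04 without the same library. Cbfb and Tle3 had r = -0.82, and -0.85 within groups, but without replicate 2 of the day 1 group labelled KO the value within groups was -0.27. That library likewise carried the values within groups of Runx3 with Cbfb (-0.89, and -0.35 without it) and of Runx3 with Tle3 (0.88, and 0.36 without it).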

How the data were processed

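The authors' tables cover all 23 libraries, with every column matched to a sample by name. Per the submitters' processing notes, Bowtie2, RSEM and the mm10 build were used; their versions and settings, and any use of strand, are not given in the sources used here. The first table, listed by gene symbol, holds estimated counts that the authors deposited as whole numbers (rounding changed nothing). The second holds TPM, also computed by the authors. In R 4.3.3, edgeR 4.0.16 was fitted to the counts (filterByExpr with minimum count 10 and total 15, TMM, quasi-likelihood F-test) with a mean for each of 8 groups over all libraries. Benjamini-Hochberg adjustment ran over all 14187 genes tested, with a threshold of 0.05. SE is the absolute log2FC over the root of F. The comparisons were 13, and 3 more (day 6 against day 3) were added after the values had been seen. Total counts of 22197606 to 23684077 per library set the counting precision.

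The members and lists were chosen with earlier results of these data known. Genes named outside the members were taken, per list and day, from the called genes with a group mean of at least 5 CPM. The up to 3 with the largest absolute log2FC were eligible, and of these Erf, Elk3, Elk4, Gps2 and Kat6a are not described above. The 5 genes most correlated with each Runx gene, among symbols that are not model names, were also named. Col10a1, Csf1r, Itga2b, Gfi1, Erg, Fli1 and Spi1, and values of the named genes on further days, were added after their values were seen. In the list of Runx-modifying enzymes, 1 gene is not reported here and is left out of the counts. List counts on day 1 without replicate 2 of labelled KO were added after the values had been seen. Alternatives were RLE scaling, library size only, a filter on mean count (50 or more) or none, DESeq2 1.42.0, limma 3.58.1 on log2(TPM + 1) and log2(TPM + 0.1), only the groups compared, a replicate block, a GC offset alone or with the block (GC content known for 93.5% of tested genes and all 9 tested members), and leaving out each library. Libraries were left out only in the comparisons that include their own group. The fitting was tested on simulated data.

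Replicate numbers come from the sample titles. Same-numbered libraries did not deviate together (mean correlation of their deviations from the group means at most 0.094 for any pair of groups), so the numbers were not treated as pairs.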

Additional observations from a re-analysis of the deposited data

Results flagged for a closer look

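In 5 results a change over time differed between the genotypes by edgeR's interaction test, each with the more positive change in labelled KO. From day 0 to day 6 the difference in log2FC was 1.83 for Tle4 and 0.51 for Runx1. Over that span WT changed by -1.12 for Tle4 and 0.86 for Runx1, and labelled KO by 0.71 and 1.37. From day 3 to day 6, a comparison added after the values had been seen, it was 1.02 for Tle4, 1.26 for Cbfa2t3 and 0.48 for Runx1. In WT these steps were -0.90 for Tle4, 0.07 for Cbfa2t3 and 0.04 for Runx1, and in labelled KO they were 0.12, 1.33 and 0.52.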

How the results depend on the processing

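Over 144 member results and 2599 refits, 2410 kept their side of the threshold, 146 of them with a change of sign in a value that was not called. Of the rest, 125 lost a call, 60 gained one, and 4 changed sign with a call in only the main fit or only the refit. Among those 4, Tle1 in labelled KO from day 0 to day 6 lost its call (0.11 on log2(TPM + 1), 0.12 on log2(TPM + 0.1)). The Cbfa2t3 interaction on day 6 gained one (-0.28 in the main fit, not called, and 0.97 and 1.38 on these scales). Cbfa2t3 had at most 1 count per library on day 0, and the causes of these changes of sign were not tested. With the replicate block the counts of members called were 2, 6, 4 and 4 for labelled KO against WT, 4, 6 and 6 in WT and 2, 6 and 7 in labelled KO against day 0, and 0, 0 and 2 for the interactions, as without it.

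Counts that moved by over 1.5 times, with their causes not tested, were these. With only the groups compared they were 3 of 6 for labelled KO against WT on day 1, 1 of 2 for labelled KO day 1 against day 0, 1 against 0 for the day 3 interaction and 0 against 1 for WT day 6 against day 3. On log2(TPM + 1) they were 2 of 4, 3 of 6, 4 against 2, 4 of 7 and 0 against 1 for WT day 1, WT day 3, labelled KO day 1, labelled KO day 6 (each against day 0) and WT day 6 against day 3. On log2(TPM + 0.1) they were 3, 4 and 4 for WT day 3, labelled KO day 1 and labelled KO day 6, and with library size only 4 for labelled KO day 1.

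Leaving out each library gave 1 to 2, 4 to 6, 3 to 4 and 3 to 4 members for labelled KO against WT, 2 to 4, 3 to 4 and 5 to 6 in WT and 2 to 4, 5 to 6 and 5 to 7 in labelled KO against day 0, and 0 to 0, 0 to 0 and 1 to 2 for the interactions. For the steps from day 3 to day 6 it gave 0 to 1 in WT, 2 to 2 in labelled KO and 1 to 3 for their difference. The scale moved the median log2FC of all genes by up to 0.16 (log2(TPM + 0.1), WT day 3 against day 0, from 0.02 to 0.18). Depth limits Runx1t1, Tle4 and the early counts of Cbfa2t3. Runx1 and Tle4 in labelled KO against WT kept their calls in every alternative, except Tle4 on day 0 without WT day 0 replicate 2.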
